A study of Homo sapiens with 94 samples.

Results

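The genes described here encode the proteins of the cytosolic ribosome. They were taken from the authors' deposited tables by symbol: RPSA, RPLP0, RPLP1, RPLP2, and every RPL or RPS symbol followed by a number and at most one of the letters A, X and L, which leaves out RPS6K kinases, pseudogenes and RPS27L. The rule found 81 of 18780 genes in each total RNA table, 49 of the large and 32 of the small subunit. It found 26 of 5846 initiation windows, from 24 genes, in the PRO-cap table and 23 of 3888 elongation regions, from 22 genes, in the PRO-seq table. The symbols took in the tissue-restricted copies RPL3L, RPL10L and RPL39L, and left out genes such as FAU and GNB2L1 (RACK1), which encode ribosomal proteins under other names.

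The ribosome is built from ribosomal RNA and one copy of most of these proteins, so cells make them in step and at a high rate. Their messenger RNAs typically start at a C followed by a run of pyrimidines, the 5′ terminal oligopyrimidine (TOP) tract, through which their translation follows mTOR signalling. Most are housekeeping genes with promoters in CpG islands, which are usually free of DNA methylation.

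Cells were HEK293 and U2OS T-Rex Flp-in lines, each carrying a construct induced by doxycycline. HEK293 derives from human embryonic kidney and U2OS from an osteosarcoma. The construct encoded a GFP-tagged TET catalytic domain (TET-CD-GFP, here TET-CD), an enzyme that oxidises 5-methylcytosine, or a mutated form (TETMut-CD-GFP, here TETmut-CD). One set of TET-CD HEK293 cells was treated for 48 h with 880 nM 5-aza-2'-deoxycytidine (Aza), which depletes DNA methyltransferases, with 365 nm UVA light at 10 kJ/m² every 8 h 4 times together with 25 µM 4-thio-2'-deoxythymidine (thio) for 48 h, with UVA alone, with thio alone, or with nothing. TET-CD and TETmut-CD HEK293 cells received doxycycline at 1 µg/mL for 48 h or nothing, and TET-CD U2OS cells received 55 nM Aza for 48 h, doxycycline, or nothing. HEK293 clones labelled as methyl-binding protein triple knockouts, G16 and G37, in the TET-CD background, and their parental line received 880 nM Aza, doxycycline, or nothing. Untreated TET-CD cells carry the construct too. The parental line is titled as wild-type TET but tagged TETMut-CD-GFP, 1 of its doxycycline libraries also carries the knockout tag, and 1 doxycycline library of G37 lacks it. Each group had 3 libraries, and nothing in the labels says that these came from separate cultures, so p-values measure the spread between libraries, which may be technical.

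The series has 94 samples: 63 total RNA, 9 PRO-cap and 9 PRO-seq libraries, and 13 DNA samples that were not analysed here. PRO-cap reads the capped 5′ ends of nascent transcripts and so measures initiation, PRO-seq reads engaged polymerase and here measures elongation in the gene body, and both were made from HEK293 cells with Aza, with doxycycline and untreated. The tables hold comparisons of groups, not values of single libraries, so each value below is a log2 fold change over untreated cells ± its standard error with 3 libraries a group, and a mean level is the mean normalised count over all libraries of an experiment. The ribosomal protein genes held 4.95% of the summed mean level in U2OS, 6.13% in the methyl-binding lines and 5.20% and 5.60% in the other HEK293 experiments. TGFBI stood at a level of 5072 in U2OS and 2.97 in HEK293, and LIN28B at 2600 in U2OS and 11112 in HEK293, tables that were normalised separately, but NEFM, a neurofilament gene typical of HEK293, stood at only 3.34 there. The TET1 row, read as a check of the construct, was called higher with doxycycline in all 6 lines that received it (2.34 ± 0.03 in TET-CD HEK293 and 3.52 ± 0.03 in U2OS in the authors' deposited tables). Ribosomal protein genes have many processed pseudogenes, and how reads with several matches were counted is not given in the sources used here.

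The start sites are shown because the calls in nascent RNA lay mostly at initiation. RefSeq (GRCh38.p14) promoters were found for 63 of the 81 genes. Each line below gives the 20 bases before the annotated start and the first 20 transcribed bases, with the longest run of C or T that reaches within 5 bases of the start in capitals. The upper 6 genes had a window called higher with Aza or doxycycline, and the lower 4 had, among genes with a RefSeq entry, the smallest change of initiation with Aza.
RPS19 (chr19:41860235-41860274, + strand): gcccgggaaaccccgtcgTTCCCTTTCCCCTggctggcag
RPL3 (chr22:39319604-39319643, - strand): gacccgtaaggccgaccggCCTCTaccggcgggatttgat
RPL39 (chrX:119791611-119791650, - strand): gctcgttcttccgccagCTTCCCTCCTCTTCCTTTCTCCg
RPS12 (chr6:132814549-132814588, + strand): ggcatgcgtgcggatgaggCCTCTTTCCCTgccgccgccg
RPS15 (chr19:1438376-1438415, + strand): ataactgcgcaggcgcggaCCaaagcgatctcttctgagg
RPS24 (chr10:78033843-78033882, + strand): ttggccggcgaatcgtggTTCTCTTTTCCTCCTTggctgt
RPS7 (chr2:3575240-3575279, + strand): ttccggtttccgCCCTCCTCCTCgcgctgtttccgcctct
RPL13 (chr16:89560662-89560701, + strand): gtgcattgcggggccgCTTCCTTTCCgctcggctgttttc
RPSA (chr3:39406700-39406739, + strand): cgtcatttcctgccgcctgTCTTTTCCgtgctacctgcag
RPL14 (chr3:40457319-40457358, + strand): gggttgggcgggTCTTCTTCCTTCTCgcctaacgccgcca

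A run of at least 6 pyrimidines lay at the start of 53 of the 63 ribosomal protein genes (84.1%), with a median length of 11, against 26.2% of 27305 genes of the promoter table, with a median of 4. The letters CTTTCC occurred between 20 bases before and 30 after the start, on either strand, in 33.3% of the ribosomal protein genes and 4.7% of all genes, and the ETS-type core CCGGAA occurred on either strand of the whole 300 bases in 52.4% and 17.4%. Apart from chromosome 8, 17 genes had both a window and a RefSeq entry. A run of this length was present in 4 of 6 of them with a called window and in 10 of 11 others. RPL8, on chromosome 8 and called higher with Aza, is not in these counts.

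With Aza, initiation rose at 7 of 26 windows of ribosomal protein genes in HEK293 cells and fell at 0, at an adjusted p below 0.05 (DESeq2 statistics of the authors' deposited table), and the other windows did not pass the test. Of all 5846 windows 1.92% were called higher and 2.51% lower. The windows had a median change of 0.20, against 0.01 for all windows, and 22 of 26 lay above 0. The genes are strongly transcribed, which makes calls easier: among the 868 windows with a mean level of at least 400, 7.14% were called higher, 23 windows were from ribosomal protein genes, and their median was 0.27 against 0.03 for all 868.

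RPS19, a small-subunit protein whose loss of 1 copy causes Diamond-Blackfan anaemia, led the group. Its main window (chr19:42364270-42364470, hg19, level 2722) changed by 0.54 ± 0.08 with Aza in the authors' deposited table (adjusted p = 1.84e-07). A weaker window upstream (chr19:42363870-42364050, level 204) stood at -0.00 ± 0.15 (adjusted p = 0.995).

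RPL3, which reaches toward the peptidyl transferase centre, rose by 0.46 ± 0.10 at its main window (adjusted p = 0.000522) in the authors' deposited table. The upstream RPL3 window, at a level of 224 against 1190 for the main one, stood at -0.17 ± 0.14 (adjusted p = 0.605). RPL39, a small protein of the exit tunnel, RPL8, another protein of the peptidyl transferase region, RPS12, and RPS15, a protein of the small-subunit head, were also called, with changes in the authors' deposited table of 0.40 ± 0.11, 0.39 ± 0.09, 0.34 ± 0.10 and 0.32 ± 0.09.

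RPL27 and RPL29, both of the large subunit, lay just outside the threshold, at 0.35 ± 0.11 (adjusted p = 0.0511) and 0.31 ± 0.10 (adjusted p = 0.0533) in the authors' deposited table. RPLP1, a protein of the stalk that recruits translation factors, stood at 0.27 ± 0.13 (adjusted p = 0.267), RPL11, which can bind MDM2, at 0.22 ± 0.10 (adjusted p = 0.221), and RPS14 at 0.16 ± 0.09 (adjusted p = 0.4) in that authors' deposited table. RPSA, RPL13 and RPS7 lay close to 0 at 0.06 ± 0.10, -0.03 ± 0.09 and -0.01 ± 0.13. RPLP0, RPLP2, RPL5, RPL23, RPS6, RPS27A and RPL41 had no row in either nascent table.

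Doxycycline in the same TET-CD cells gave 5 higher and 0 lower windows of 26 in the authors' deposited table, where 1.95% of all windows were called higher, and 4.95% of those with a level of at least 400. With the deposited adjusted p, 5 of the 23 windows at a level of at least 400 were higher with doxycycline and 7 with Aza. With p-values adjusted over fewer windows, those with a level of at least 100, the count was 8 with doxycycline and 10 with Aza, and over windows with a level of at least 400, a level chosen after seeing the data, it was 9 and 10. The shares of all windows under these new adjustments are not given here, so these counts cannot be set against the shares above. The median was 0.18, against 0.01 for all windows, and 21 of 26 lay above 0. RPS19 changed by 0.43 ± 0.08 (adjusted p = 0.000279), RPL39 by 0.43 ± 0.11, RPS12 by 0.39 ± 0.10 and RPS24 by 0.34 ± 0.10 in the authors' deposited table. RPL3 at its main window had 0.26 ± 0.10 (adjusted p = 0.107) and RPS15 0.10 ± 0.09 (adjusted p = 0.641). RPLP1 stood at 0.30 ± 0.13 (adjusted p = 0.194), RPL11 at 0.30 ± 0.10 (adjusted p = 0.0598), RPSA at 0.18 ± 0.10 (adjusted p = 0.34) and RPS14 at 0.11 ± 0.09 (adjusted p = 0.637). RPL39L, unlike RPL39, stood at -0.00 ± 0.12 with doxycycline (adjusted p = 0.995) and 0.09 ± 0.12 with Aza (adjusted p = 0.771). Aza and doxycycline were set against the same untreated PRO-cap libraries, so a low value in those libraries would lift both, and likeness between the 2 comparisons is not a second observation. Set directly against each other, Aza and doxycycline gave 0 called windows among the 26, with 2 at an unadjusted p below 0.05, both higher with Aza.

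**Figure D1:**
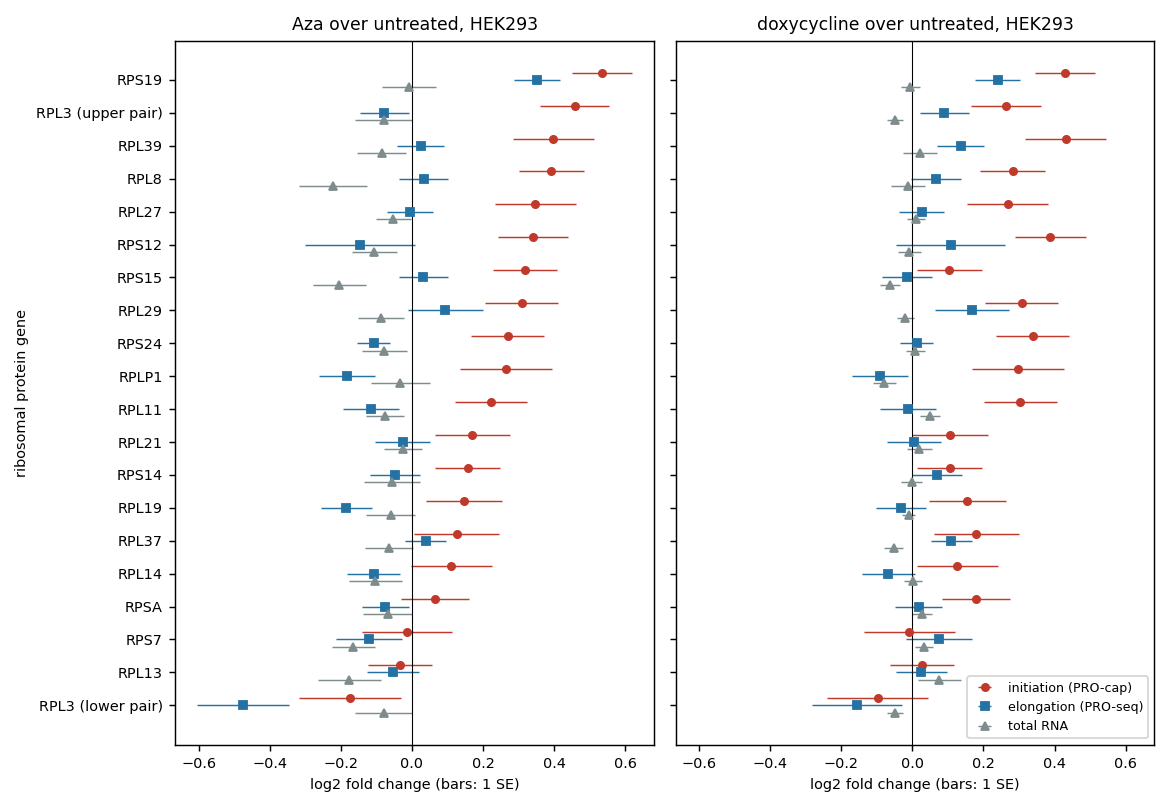
Log2 fold changes over untreated HEK293 cells with Aza and with doxycycline (horizontal axis, bars of 1 standard error) of initiation, elongation and total RNA for ribosomal protein genes with a matched initiation window and elongation region (rows, ordered by initiation with Aza). Initiation lies to the right of elongation in every row shown with Aza, and RPS19, called higher in both nascent assays, has total RNA at -0.01 in both panels.

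For elongating polymerase, in the authors' deposited table, of 23 regions 1 was higher with Aza (7.18% of all regions) and 2 were lower (7.95% of all), and the median was -0.05, against 0.00 for all regions. RPS19 was the 1 higher gene, at 0.35 ± 0.06 (adjusted p = 1.99e-06). The short stretch of RPL3 between its upstream and its main start was lower in the authors' deposited table, at -0.47 ± 0.13 (adjusted p = 0.00381, level 296). The body of RPL3 behind the main start, at a level of 8166, had -0.08 ± 0.07 (adjusted p = 0.528).

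Other elongation values with Aza in the authors' deposited table were -0.18 ± 0.08 for RPLP1 (adjusted p = 0.106), -0.12 ± 0.08 for RPL11 (adjusted p = 0.365), -0.08 ± 0.07 for RPSA and -0.05 ± 0.07 for RPS14. RPL39 and RPL8, both called higher in initiation, had elongation values of 0.02 ± 0.07 and 0.03 ± 0.07. With doxycycline RPS19 was again the 1 gene called higher of 23, at 0.24 ± 0.06 (adjusted p = 0.00598; 3.32% of all regions higher), 0 were lower, and the median was 0.03. The body of RPL3 had 0.09 ± 0.07, RPS14 0.07 ± 0.07, RPSA 0.02 ± 0.07, RPL11 -0.01 ± 0.08 and RPLP1 -0.09 ± 0.08 with doxycycline.

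The difference between the 2 steps was tested gene by gene over all 3860 matched pairs of window and region. With Aza, elongation minus initiation was below 0 in 23 of 23 pairs of ribosomal protein genes and in 52.5% of all pairs, with medians of -0.30 and -0.02. Among the 775 pairs with an initiation level of at least 400, 63.5% lay below 0, with a median of -0.08, and 22 of 22 pairs of ribosomal protein genes did, with a median of -0.31. By z test with Benjamini-Hochberg adjustment over all pairs 4 were called lower and 0 higher, where 1.61% of all pairs were called lower. RPL3 at its main start differed by -0.54 ± 0.12 (adjusted p = 0.000982) and RPS24 by -0.38 ± 0.11 (adjusted p = 0.0329). RPS19, in which both steps were higher, differed by -0.18 ± 0.11 (adjusted p = 0.422), and RPL13 by -0.02 ± 0.12.

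With doxycycline the difference was below 0 in 22 of 23 pairs, with a median of -0.19 against 0.01 for all pairs, but 0 were called (0.803% of all pairs in either direction), with 6 lower and 0 higher at an unadjusted p below 0.05. The largest was that of RPLP1, -0.39 ± 0.15 (adjusted p = 0.254). PRO-cap and PRO-seq were normalised separately, so a shift of one assay against the other moves all pairs alike, and the test takes both assays as independent.

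The start sites themselves were also resolved. At primary sites 3 of 26 were called higher with Aza (4.29% of all primary sites), RPS19 at 0.39 ± 0.13, RPL37 at 0.33 ± 0.12 and RPS15 at 0.28 ± 0.10 in the authors' deposited table, and 3 with doxycycline (4.47% of all), among them RPL39 at 0.54 ± 0.18 and RPS19 at 0.36 ± 0.13. Other genes with a window called higher with Aza had no called primary site. RPL3 at its main start stood at 0.10 ± 0.11 (adjusted p = 0.615) and RPL8 at 0.08 ± 0.10 (adjusted p = 0.669). RPS12 stood at 0.17 ± 0.10 (adjusted p = 0.299), and RPL39 at 0.46 ± 0.19 (adjusted p = 0.0818) and 0.16 ± 0.14. A weaker primary site of RPS19 stood at -0.16 ± 0.18 with Aza (adjusted p = 0.63). At secondary sites 1 of 48 was higher with Aza (0.721% of all) and 6 with doxycycline (1.28% of all), and 0 were lower. RPL39 had 0.79 ± 0.19 with Aza and 0.78 ± 0.19 with doxycycline at its secondary site in the authors' deposited table. RPL13 and RPS7, whose initiation windows stood near 0, had 0.64 ± 0.16 and 0.55 ± 0.16 at secondary sites with doxycycline (adjusted p = 0.00875 and 0.0411), beside RPL3 at 0.63 ± 0.15, RPL11 at 0.51 ± 0.15 and RPS15 at 0.48 ± 0.14.

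Divergent sites, where transcription starts in the opposite direction from the same promoters, were called lower at a few genes. The shares called lower were not far from those of all divergent sites. With Aza 4 of 40 were lower (8.45% of all divergent sites) and 0 higher (6.13% of all): RPL21 at -0.65 ± 0.17, RPL8 at -0.60 ± 0.16, RPL39L at -0.44 ± 0.13 and RPL3 at -0.36 ± 0.09 in the authors' deposited table. RPL8 and RPL3 each had a sense window called higher with Aza, whereas RPL21 and RPL39L had no called sense window. With doxycycline 3 were lower (5.37% of all), RPL21 at -0.65 ± 0.17, RPL8 at -0.51 ± 0.15 and RPL3 at -0.30 ± 0.09, and 1 was higher (7.13% of all), RPL11 at 0.49 ± 0.16. At dispersed sites the median level was only 13.4 and 0 of 27 were called with either treatment, with 0 at an unadjusted p below 0.05 with Aza and 1 with doxycycline. The 27 sites had medians of -0.37 with Aza and 0.33 with doxycycline, and set directly against each other all 27 were lower with Aza, with a median of -0.52 against 0.00 for all dispersed sites. None of these 27 was called, and 3 reached an unadjusted p below 0.05. The 27 sites came from 22 genes, with several sites in RPL3. The share of all dispersed sites lower with Aza is not given here, nor are their medians against untreated cells. The common direction therefore cannot be read as particular to these genes.

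**Figure D2:**
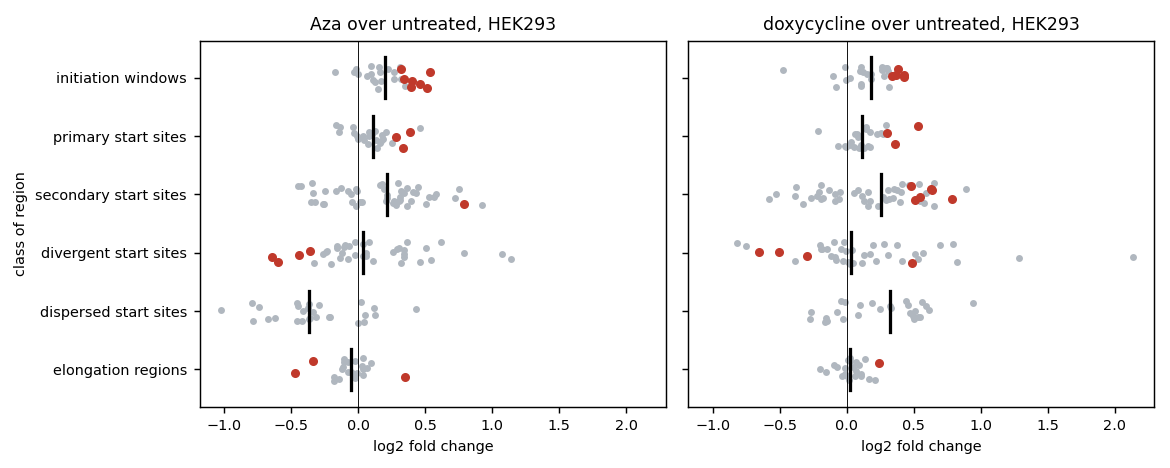
Log2 fold changes over untreated HEK293 cells (horizontal axis) at 6 classes of region of ribosomal protein genes (rows) with Aza, left, and doxycycline, right. Each point is a window, site or region, red where the adjusted p was below 0.05, and the black bar is the median, which is 0.20 and 0.18 at initiation windows and -0.05 and 0.03 in elongation regions.

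In total RNA, with TET-CD doxycycline 0 of 80 tested genes were called in either direction (0.883% of all genes), with 2 higher and 6 lower at an unadjusted p below 0.05, and the quartiles of the genes were -0.01 and 0.03. TETmut-CD doxycycline gave 0 of 80 as well (0.0276% of all genes), with 1 lower at an unadjusted p below 0.05, and the TET-CD minus TETmut-CD difference gave 0 of 80 by z test (0.149% of all genes), with 5 higher and 1 lower at an unadjusted p below 0.05. RPLP0 stood at 0.01 ± 0.02, RPLP2 at 0.01 ± 0.03, RPL5 at -0.01 ± 0.02, RPL23 at -0.01 ± 0.02, RPS6 at 0.04 ± 0.02 and RPS27A at -0.01 ± 0.05 with TET-CD doxycycline. RPLP1 stood at -0.08 ± 0.03 (adjusted p = 0.366), RPL3 at -0.05 ± 0.02 (adjusted p = 0.514), RPL11 at 0.05 ± 0.03, RPSA at 0.03 ± 0.03, RPS14 at 0.00 ± 0.03 and RPL41 at 0.01 ± 0.03. In bulk RNA, fewer cells of a type and less RNA per cell cannot be told apart. These and all following total RNA values are the deposited fold changes with the authors' shrinkage toward 0 undone, and their adjusted p-values are those of the authors' deposited tables.

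With Aza in HEK293 5 of 80 genes were lower (7.14% of all genes) and 0 higher (7.17% of all genes). Of the 81 ribosomal protein genes 73 lay below 0, with a median of -0.08 against 0.01 for all genes. The share called lower was close to that of all genes. The 5 were RPL36 at -0.21 ± 0.07 (adjusted p = 0.0334), RPS15 at -0.20 ± 0.07 (adjusted p = 0.0433), RPS25, which several viral internal ribosome entry sites need, at -0.19 ± 0.06 (adjusted p = 0.0263), RPS7 at -0.17 ± 0.06 (adjusted p = 0.0446) and RPL26 at -0.16 ± 0.06 (adjusted p = 0.0419). RPL5 and RPL23, which like RPL11 can bind MDM2, stood at -0.12 ± 0.07 (adjusted p = 0.234) and -0.15 ± 0.06 (adjusted p = 0.0523), and RPS27A, made as a fusion with ubiquitin, at -0.15 ± 0.06 (adjusted p = 0.0609). Of the stalk, RPLP2 stood at -0.16 ± 0.07, RPLP0 at -0.03 ± 0.08 and RPLP1 at -0.03 ± 0.08. RPS6, the target of S6 kinase, had -0.11 ± 0.08, RPL41 -0.12 ± 0.07, RPL3 -0.08 ± 0.08, RPL11 -0.08 ± 0.05, RPSA -0.07 ± 0.07 and RPS14 -0.06 ± 0.08.

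RPS19 was the exception when total RNA was set against elongation. Its total RNA stood at -0.01 ± 0.08 with Aza, and total RNA minus elongation at -0.36 ± 0.10 (z test, adjusted p = 0.00798), the 1 gene called lower of 22 (3.19% of all 3199 genes). With doxycycline its total RNA stood at -0.01 ± 0.03 and the difference at -0.25 ± 0.07 (adjusted p = 0.0477), again the 1 gene of 22 called lower (0.127% of all 3157 genes).

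UVA lowered total RNA of 17 of 79 ribosomal protein genes in HEK293 and raised 0, where 5.25% of all genes were lower and 7.51% higher. Of the 81 ribosomal protein genes 72 lay below 0, with a median of -0.12 against 0.00 for all genes. The small and the large subunit gave 9 and 8 of the calls. The lowest was RPL22, a large-subunit protein that also binds a viral small RNA, at -0.27 ± 0.06 (adjusted p = 0.00141), followed by RPS29 at -0.26 ± 0.08, RPS12 at -0.25 ± 0.06 (adjusted p = 0.00272), RPL13A, part of an interferon-induced translation block, at -0.24 ± 0.08, RPS3A at -0.24 ± 0.08 and RPS18 at -0.23 ± 0.08. RPS15 and RPL28 stood on the other side of 0, at 0.20 ± 0.07 (adjusted p = 0.0547) and 0.18 ± 0.07 (adjusted p = 0.0671).

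UVA with thio lowered 1 of 80 (4.15% of all genes lower), RPL22 at -0.24 ± 0.06 (adjusted p = 0.00493), and raised 2 (5.37% higher), RPL28 at 0.24 ± 0.07 (adjusted p = 0.012) and RPL39L, a copy of RPL39 known from testis, at 0.25 ± 0.08 (adjusted p = 0.0317). Thio alone gave 0 of 77 in either direction (0.0553% of all genes), with 1 higher and 8 lower at an unadjusted p below 0.05 and a median of -0.04. RPS12 had the smallest unadjusted p of the ribosomal protein genes for UVA with thio over UVA, so it is not a typical case. It stood at -0.07 ± 0.06 with UVA and thio, -0.25 ± 0.06 with UVA and -0.16 ± 0.06 with thio. All 3 values are against the same untreated libraries that also served for Aza.

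Compared directly, UVA with thio over UVA gave 0 called of 79 (3.03% of all genes in either direction), with 7 higher and 0 lower at an unadjusted p below 0.05, although 76 of 81 lay above 0 with a median of 0.08. UVA with thio over thio gave 0 called of 80 (3.68% of all), with 1 higher at an unadjusted p below 0.05 and a median of 0.00. In antisense RNA of the same genes, UVA with thio over UVA gave 3 higher of 53 tested (0.436% of all antisense features), RPL17 at 1.01 ± 0.33, RPL37 at 0.91 ± 0.35 and RPS10 at 0.65 ± 0.30, shrunken values of the authors' deposited table at levels of 43.4 to 66.6. At an unadjusted p below 0.05, 29 of 79 were higher and 0 lower. The share of all antisense features at that unadjusted p is not given here, so this count cannot be read as particular to these genes. Antisense calls in U2OS with Aza were 1 higher, RPL28 (3.34% of all), and 1 lower, RPL30 (3% of all). With doxycycline in U2OS antisense RNA of RPL4 was called higher, at a deposited shrunken 0.17 ± 0.06 (adjusted p = 0.0244). The share of all antisense features called with doxycycline is not given here.

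**Figure D3:**
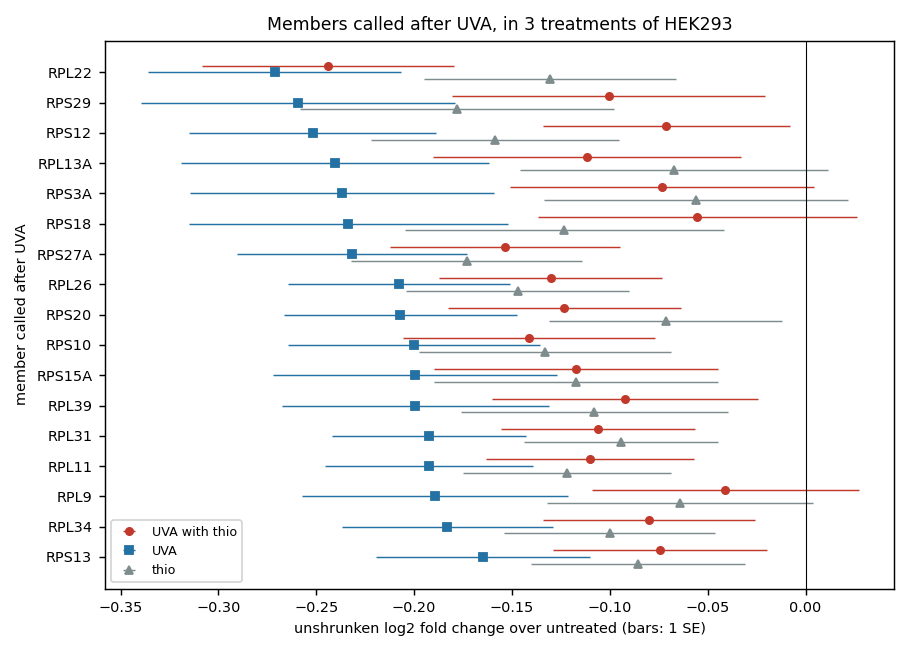
Total RNA log2 fold changes over untreated HEK293 cells (horizontal axis, bars of 1 standard error) with UVA and thio, with UVA and with thio of the 17 ribosomal protein genes called lower after UVA (rows). They were chosen on the UVA values, which run from -0.27 for RPL22 to -0.16 for RPS13.

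U2OS cells showed changes in both directions. Aza raised 8 of 81 genes (10.8% of all genes higher) and lowered 9 (12.9% lower), shares close to those of all genes, and the median was 0.00. Doxycycline raised 13 (5.8% higher) and lowered 4 (6.43% lower), with a median of 0.01. The share lowered with doxycycline was not above that of all genes. Apart from RPL3L, the called genes moved by no more than 0.20.

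The genes called lower in U2OS, in shares not above those of all genes, included the acidic stalk proteins. RPLP1 stood at -0.19 ± 0.04 with Aza (adjusted p = 2.51e-06) and -0.13 ± 0.04 with doxycycline (adjusted p = 0.00501), and RPLP2 at -0.15 ± 0.03 with Aza and -0.09 ± 0.03 with doxycycline. RPLP0, which carries them, had -0.08 ± 0.03 with Aza (adjusted p = 0.0424) and -0.07 ± 0.03 with doxycycline, which was not called. RPS28 at -0.14 ± 0.04, RPS21 at -0.14 ± 0.04 and RPL10 at -0.11 ± 0.03 were also lower with Aza, as was RPS29 at -0.10 ± 0.03, and with doxycycline RPS28 had -0.10 ± 0.04 and RPS12 -0.09 ± 0.03.

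RPL9, a large-subunit protein near the stalk base, was higher at 0.16 ± 0.03 with Aza (adjusted p = 2.78e-06) and 0.20 ± 0.03 with doxycycline (adjusted p = 4.54e-09). RPL24, which bridges the subunits, had 0.12 ± 0.03 with Aza and 0.15 ± 0.03 with doxycycline, and RPS3A 0.11 ± 0.03 with Aza and 0.13 ± 0.03 with doxycycline, all called. RPL35 had 0.09 ± 0.03 with Aza and 0.12 ± 0.03 with doxycycline, RPL7 0.09 ± 0.03 with Aza, and RPL35A 0.11 ± 0.03 with doxycycline. The 2 comparisons share their untreated libraries.

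RPL3L, a copy of RPL3 known from striated muscle, was the exception in size. It changed in U2OS by 1.05 ± 0.16 with Aza (adjusted p = 3.96e-09) and by 0.59 ± 0.17 with doxycycline (adjusted p = 0.00595), at a mean level of 155, and RPL3 changed by -0.03 ± 0.03 with each. In the HEK293 tables RPL3L had levels of 17.3 to 28.2 and was not called. RPL10L, a retrogene of RPL10 known from testis, had a level of 1147 in U2OS and at most 0.395 in the HEK293 tables, and in U2OS changed by 0.13 ± 0.07 with Aza and 0.07 ± 0.07 with doxycycline, neither called. RPL39L had 1720 in U2OS and 554 to 828 in HEK293, with 0.00 ± 0.06 for Aza in U2OS. Levels of the 2 lines come from tables normalised separately.

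**Figure D4:**
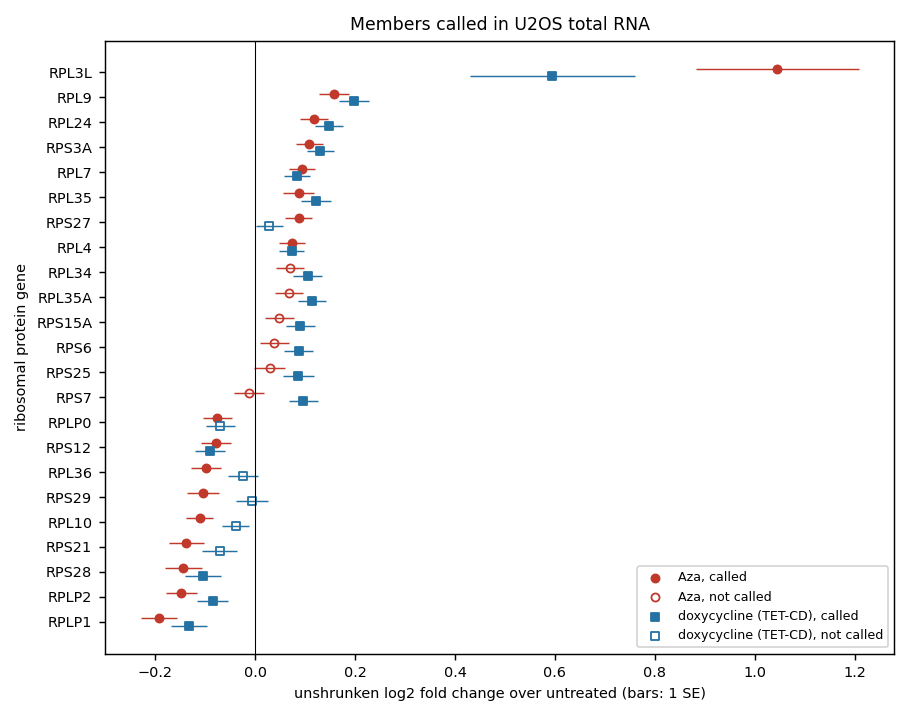
Total RNA log2 fold changes over untreated U2OS cells (horizontal axis, bars of 1 standard error) with Aza (circles) and doxycycline (squares) of the 23 ribosomal protein genes called in either comparison (rows, ordered by the Aza value), filled where called. RPL3L lies at 1.05 and 0.59, and the other genes lie within 0.20 of 0.

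In the methyl-binding lines 9 of 80 genes were lower with Aza in G16 (12% of all genes lower), 17 of 80 in G37 (12.6% lower) and 5 of 80 in the parental line (12.3% lower). In each line 0 were higher, where 11.6%, 12.1% and 10.4% of all genes were higher. The share lower was close to that of all genes in G16, above it in G37 and below it in the parental line. The medians were -0.06, -0.09 and -0.05. In G37 RPL8 had -0.23 ± 0.07 (adjusted p = 0.00292), RPS29 -0.19 ± 0.07, RPL36 -0.19 ± 0.06, RPL26 -0.18 ± 0.05, RPL39 -0.17 ± 0.07 and RPS7 -0.17 ± 0.05. In G16 RPS15 had -0.37 ± 0.07 (adjusted p = 1.57e-05), RPL28 -0.18 ± 0.06 and RPL23 -0.17 ± 0.06. In the parental line the 5 were RPS21 at -0.16 ± 0.05, RPS12, RPL23A, RPS27A and RPS26. The direct tests of G16 minus parental and G37 minus parental effects of Aza gave 0 called of 80 each (0.042% and 0.00601% of all genes), with 5 and 3 genes at an unadjusted p below 0.05.

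RPL36 was the lowest of the genes called with Aza in TET-CD HEK293 and is not typical in size. In each line its value lay below the median of the ribosomal protein genes. Its values were -0.21 ± 0.07 in TET-CD HEK293, -0.15 ± 0.06 in G16, -0.19 ± 0.06 in G37, -0.09 ± 0.06 in the parental line and -0.10 ± 0.03 in U2OS at the lower dose. RPL36 was called in all of these but the parental line. RPS15 did not do the same, with -0.20 ± 0.07 in TET-CD HEK293, -0.37 ± 0.07 in G16, 0.04 ± 0.07 in G37, -0.07 ± 0.07 in the parental line and -0.07 ± 0.04 in U2OS.

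Doxycycline lowered 2 of 77 genes in G16 (0.2% of all genes lower), RPS15 at -0.32 ± 0.07 (adjusted p = 0.0147) and RPL28 at -0.26 ± 0.06 (adjusted p = 0.00666), against the same untreated G16 libraries that served for Aza. It changed 0 of 80 in G37 (0.263% of all in either direction), with 0 at an unadjusted p below 0.05, and 0 of 80 in the parental line (1.3% of all), with 3 higher and 1 lower. G16 minus parental was called for these 2 genes (0.277% of all genes lower): -0.53 ± 0.11 for RPS15, which stood at -0.32 in G16 and 0.21 in the parental line (adjusted p = 0.00188), and -0.33 ± 0.08 for RPL28, at -0.26 in G16 and 0.07 in the parental line (adjusted p = 0.0261). These calls rest on the unshrunken fold changes: with total RNA values as deposited both were lost, at -0.41 for RPS15 (adjusted p = 0.391) and -0.25 for RPL28 (adjusted p = 0.178). G37 minus parental gave 0 of 80 (0% of all genes), with 1 lower at an unadjusted p below 0.05. Each clone is a single line, and the labels tag the clones TET-CD-GFP and the parental line TETMut-CD-GFP, so clone, knockout and construct cannot be told apart.

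**Figure D5:**
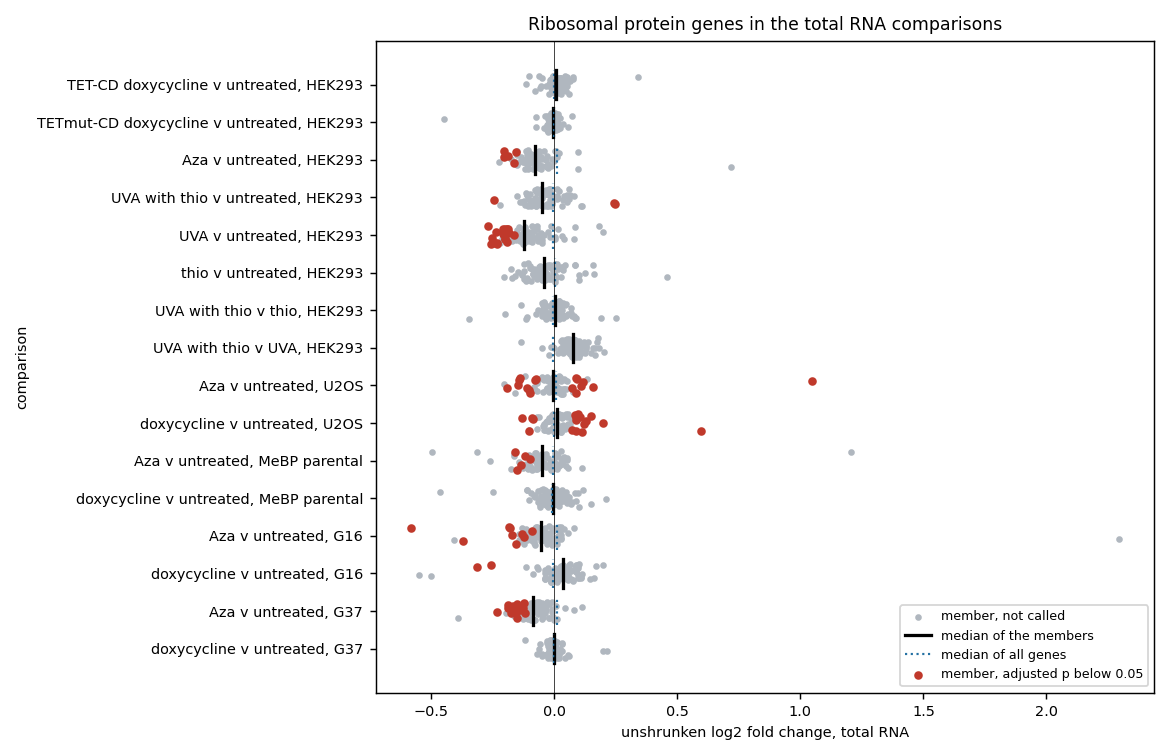
Unshrunken total RNA log2 fold changes of the ribosomal protein genes (points, horizontal axis) in 16 comparisons (rows), red where the adjusted p was below 0.05, with the median of these genes (black) and of all genes (dotted). The medians run from -0.12 with UVA to 0.08 for UVA with thio over UVA.

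Related genes of ribosome assembly and translation are given by their counts, with no test of a list against another. Of 59 ribosome assembly factors, 35 were lower and 0 higher with Aza in TET-CD HEK293, where 7.14% of all genes were lower and 7.17% higher. In G16 32 were lower and 0 higher (12% and 11.6% of all genes), in G37 39 and 0 (12.6% and 12.1%), and in the parental line 40 and 1 (12.3% and 10.4%). The medians were -0.19, -0.12, -0.17 and -0.14, against 0.01, 0.01, 0.01 and -0.01 for all genes. In U2OS 19 were higher and 2 lower with Aza (10.8% and 12.9% of all genes), and 19 higher and 0 lower with doxycycline (5.8% and 6.43%), with medians of 0.04 and 0.06. With UVA 7 were higher and 0 lower (7.51% and 5.25% of all genes), against 0 higher and 17 lower of 79 ribosomal protein genes. Of 24 other genes of the TOP class and of translation factors, 6 were lower and 0 higher with UVA, with a median of -0.12, and 2 lower and 0 higher with Aza in TET-CD HEK293, where 7.14% of all genes were lower. Mitochondrial ribosomal protein genes, which serve the separate ribosome of that organelle, had 21 of 76 lower and 0 higher with Aza in TET-CD HEK293, against the same shares of all genes. Among their PRO-cap windows with Aza 1 of 12 was higher and 2 were lower, with a median of -0.20. Of all windows 1.92% were higher and 2.51% lower, with a median of 0.01. The other 2 lists lay on the same side as the ribosomal protein genes. Of the TOP class and translation factors 1 of 5 PRO-cap windows was higher and 0 lower, with a median of 0.20. Of the assembly factors 0 of 8 were higher and 0 lower, with a median of 0.17. FAU and GNB2L1 were not called in TET-CD HEK293 with Aza, at -0.05 ± 0.08 and -0.14 ± 0.07. GNB2L1 was called lower with Aza in G16, at -0.14 ± 0.05 (adjusted p = 0.0373).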

How the data were processed

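The submitters' processing notes name Trim Galore 0.4.3, STAR 2.4.2, bedtools 2.20.1, deepTools 3.0.2, R 3.5.1 and DESeq2 1.22.1, and the builds hg19 and, for the chicken spike-in of nascent RNA, galGal5. Whether the spike-in set the scale is not given in the sources used here. Mean levels were deposited by the authors as a signal, normalised counts averaged over the libraries of an experiment. Fold changes and standard errors were deposited by the authors on the log2 scale. Each raw and each adjusted p-value was deposited by the authors. The nascent tables also hold, as the authors deposited it, a score equal to fold change over standard error. Depth per library is not given in the tables, so precision is carried by the standard errors.

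Total RNA fold changes were shrunken toward 0, as the p-values show. Standard errors were recovered by assuming a Cauchy prior and fitting its scale, per table, to the p-values, and the fold change was the z value of the raw p times that error. Over 12263 well-measured genes (mean level 100 or more) the deposited comparison of UVA with thio over UVA correlated at 0.9999 with the difference of the unshrunken effects. For G37 with doxycycline the errors could not be recovered and those of G37 with Aza were used. The deposited values were kept as an alternative in the difference tests. Of 18850 rows in each total RNA table, 70 repeated a symbol, and the row with the highest level was kept. A call means an adjusted p below 0.05. Initiation windows were matched to elongation regions by their edges, 51 bases apart, and differences between effects were tested by z with Benjamini-Hochberg adjustment over all features (Python 3.11.15). The code was tested on simulated data.

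Named genes were all called ones where 6 or fewer were called in a direction, otherwise the 6 with the largest change, a fixed set (RPLP0, RPLP1, RPLP2, RPSA, RPL3, RPL5, RPL11, RPL23, RPS6, RPS14, RPS19, RPS27A and RPL41) in the HEK293 Aza and doxycycline comparisons, and the copies RPL3L, RPL10L and RPL39L with their parents. Other genes named were chosen after their values were seen, and some genes that enter the counts are not reported here. The genes, the lists and the rules were chosen with earlier results of these data known. Sequences are from RefSeq promoters of GRCh38.p14, which are not on the build of the tables.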

Additional observations from a re-analysis of the deposited data

Results flagged for a closer look

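The doxycycline effect on total RNA was called different between G16 and the parental line for 2 ribosomal protein genes with unshrunken fold changes, by a z test of the difference itself with Benjamini-Hochberg adjustment over all genes. RPS15 stood at -0.32 ± 0.07 in G16 and 0.21 ± 0.07 in the parental line, a difference of -0.53 ± 0.11 (adjusted p = 0.00188). RPL28 stood at -0.26 ± 0.06 in G16 and 0.07 ± 0.06 in the parental line, a difference of -0.33 ± 0.08 (adjusted p = 0.0261). With the deposited fold changes neither was called (adjusted p = 0.391 for RPS15 and 0.178 for RPL28). The parental line is tagged TETMut-CD-GFP and G16 TET-CD-GFP, so line, knockout and construct cannot be told apart. One of the 3 parental doxycycline libraries carries the knockout tag in the labels, and its part in these differences was not tested.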

How the results depend on the processing

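No paired analysis was possible because the deposited tables hold comparisons of groups and no values of single libraries, and leaving out each replicate was not run for the same reason. Of 152 planned counts of called genes, 144 stayed within 1.5 times the main count and 8 did not. Centring each table on the median of all genes gave 8 genes lower with Aza in TET-CD HEK293 (5 as deposited), 3 lower with Aza in the parental line (5 as deposited), 1 higher with UVA and 1 higher for UVA with thio over thio (0 as deposited in both). Restricting to features whose mean level reached 100 also gave 1 higher for UVA with thio over thio, and gave 8 initiation windows higher with doxycycline (5 as deposited). A level of at least 400 gave 9. The shares of all windows called under these adjustments are not given here. All values at that level were chosen after seeing the data. With total RNA as deposited, 1 gene was higher in total RNA minus elongation with Aza (0 unshrunken), and 0 were lower in G16 minus parental with doxycycline (2 unshrunken), where RPS15 had -0.41 (adjusted p = 0.391) and RPL28 -0.25 (adjusted p = 0.178). Apart from the alternatives' own construction, the cause was not tested. Of 335 planned values of single genes, 321 kept their direction and side of the threshold, 14 lost the call and 0 reversed. Depth per library is not known, and initiation windows and dispersed sites at levels near 10 have standard errors too wide to show differences of the size called elsewhere.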
